A study of Nicotiana tabacum with 12 samples.

Results

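Tobacco seedlings in which the snapdragon transcription factor AmMIXTA had been switched on were compared with uninduced seedlings at 4 h and at 48 h, and this account concerns the change in that contrast between the 2 times. For each gene the induction effect (induced minus control) at 4 h was subtracted from that at 48 h, over the 11 distinct libraries of all 4 groups. The genes had to be present in the deposited tables of both times, which held for 42028 of the 45034 genes in either table. From these, 18 genes with an inflated single entry (a value above 5000 and over 20 times the gene's median) were left out. A further filter on low values left 41261 genes, and 66 of them (0.16%) had effects that differed between the times.

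All seedlings were T2 Nicotiana tabacum of cultivar Petit Havana SR1 that carried AmMIXTA behind a promoter switched on by β-estradiol. Control seedlings carried it uninduced, induced seedlings received β-estradiol, and both were collected 4 h later at 7 days of age or 48 h later at 9 days. Each collection pooled the aerial parts of 15 seedlings, and polyadenylated RNA was read with paired reads of 150 bp. Estradiol was not given here to seedlings without the transgene and the transgene's own level was not analysed, so a response to estradiol and one to AmMIXTA cannot be told apart.

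AmMIXTA is a MYB transcription factor known for shaping the conical petal cells of snapdragon, and MIXTA-like proteins can direct epidermal cells to form outgrowths such as trichomes. Tobacco cotyledons bear no trichomes of their own, and the study looked for early and later steps of trichome formation on them. A gene that answers only at first and one that answers only later both show as a difference between the effects, as does one whose effect changes sign. The times also differ in seedling age, and each control was collected at the age of its induced group, so a change that both groups share with age cancels in the difference.

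Levels are given in CPM, recovered reads per 1000000 of the library after TMM scaling, and listed by replicate number. Effects and differences are on the scale of log2(CPM + 0.5), where 1 is a doubling, and they understate the change of low genes. Without the inflated entries the recovered reads numbered 12457701 to 30103266 per library except in control replicate 1, with 917871 at 4 h and 1240033 at 48 h, called the shallow libraries here, where 1 read is worth 1.07 and 0.793 CPM. Inflated entries held 24.2% to 69.3% of the reads in the 48 h libraries other than control replicate 1 (2.70%), 43.0% and 40.1% in control replicates 1 and 2 at 4 h, and at most 0.105% in the rest. With them the totals were 22443424 to 44946993, and 1609263 and 1274469 in the shallow libraries. The labels give 38000000 reads as the least per sample, and why the shallow libraries hold so few here was not tested. At 48 h, control replicate 3 repeats replicate 2 gene for gene and the pair entered as 1 sample (replicate 2). The 48 h control thus has n = 2 and each other group n = 3. Without both shallow libraries, or without either 48 h control, the 48 h control is a single library, and results of those settings rest on it. The labels do not say that the samples came from separate cultures, so the p-values speak only of the spread among these libraries, which may be technical. The 6 mesophyll markers summed to 11610 to 18860 CPM, while root markers (9 genes) summed to 22.55 to 48.0 CPM and the 3 glandular trichome markers to 131.4 to 240.7 CPM. Fewer cells of one type and less RNA per cell cannot be told apart in such bulk samples.

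The effect was larger (more positive) at 48 h in 44 genes (0.107% of the genes tested) and smaller (more negative) in 22 (0.0533%), with an adjusted p under 0.05 by limma with Benjamini-Hochberg adjustment. In 58 of the 66 the effects had opposite signs at the 2 times, against 48.9% of all genes tested. A large difference makes opposite signs likely, so that count only describes the genes. The 44 had a median effect of -0.87 at 4 h and 0.47 at 48 h, and the 22 had medians of 0.61 and -0.66. With scaling by library size alone the split was 23 larger and 25 smaller of 48.

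The induced libraries lay below the controls without overlap at 4 h in 39 of the 44 genes, where 5.51% of all genes tested did so, and above them at 48 h in 28 (11.1% of all genes tested). Among the 22, induced libraries lay above the controls at 4 h in 19 (4.86%) and below them at 48 h in all 22 (10.5%). Both held in 23 of the 44 (0.584% of all genes tested) and in 19 of the 22 (0.601%). These counts use the values that the test used and are a description. The induced group at 4 h was the farthest from the other 3 groups in 23 of the 44 (8212 of the 41261 genes tested). The induced group at 48 h was the farthest in 14 of the 22 (12123 of the 41261). Most of the 44 thus had induced libraries below the controls early, with 28 above them later, and the 22 ended below them.

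**Figure D1:**
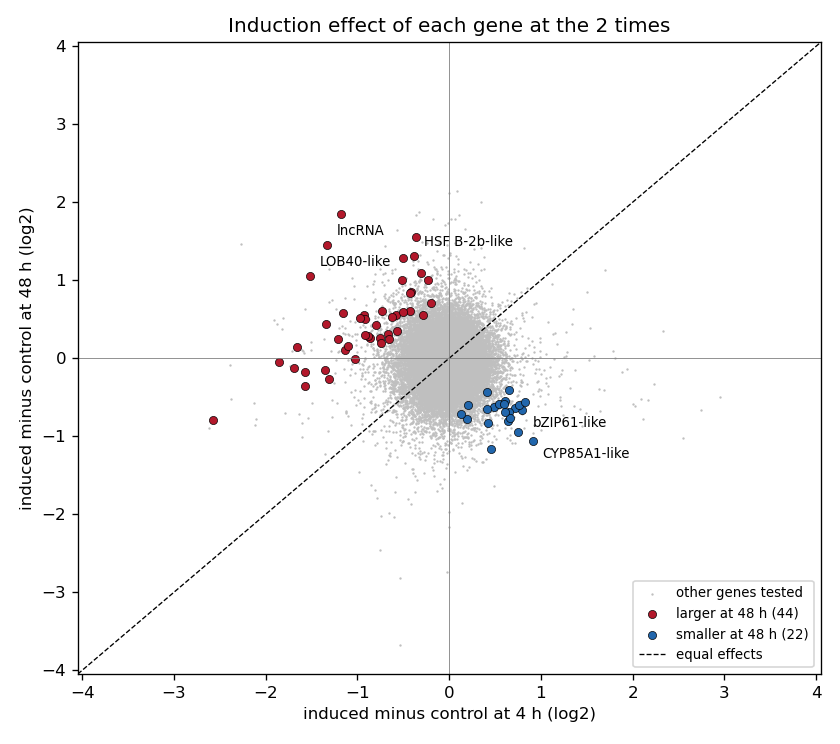
Each point is a gene, with its induction effect at 4 h on the x axis and at 48 h on the y axis (log2). Red points are the 44 genes with a larger effect at 48 h and blue points the 22 with a smaller one, which lie on opposite sides of the dashed line of equal effects.

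In the same fit 52 genes passed the threshold for the effect at 4 h (4 higher, 0.00969% of the genes tested, and 48 lower, 0.116%, together 0.126%). For the effect at 48 h it was 10 (8 higher, 0.0194%, and 2 lower, 0.00485%, together 0.0242%). Of the 48 genes that fell at 4 h, the difference passed in 25 and not in the other 23. Of the 8 genes that rose at 48 h it passed in 5. At an unadjusted p under 0.05 the difference held 2612 genes, 6.33% of all genes tested. Among the 1384 tested genes with a name the share was 20.5%. Of the 1384, 117 stand in the authors' deposited table of genes higher at 4 h and 301 in that for 48 h. Both tables were chosen on these data. In 1 gene both effects passed, with opposite signs. Across genes the effects at the 2 times had a Pearson correlation of -0.0019 and a Spearman correlation of 0.00594 over 41261 genes, which are not independent and are scaled together. Libraries with the same library number, a number given beside each sample in the labels, deviated together. Pairing them by it gave 343 genes (198 larger, 0.48% of the genes tested, and 145 smaller, 0.351%, together 0.831%), which include 63 of the 66. That fit leaves fewer residual degrees of freedom than the main fit. At 48 h induced replicate 1 has no partner in it, and the shallow control is paired with induced replicate 3. A pass in the paired fit thus rests on few pairs and is given as a description.

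Genes that fell at 4 h and had no effect past the threshold at 48 h made up 9 of the 12 leading larger differences, and of these LOB40-like alone has a description in the sources used here. LOC107798225, a protein-coding gene, had 25.7, 29.6 and 25.1 CPM in controls and 7.92, 8.19 and 8.24 in induced libraries at 4 h, against 27.0 and 21.3 in controls and 26.0, 23.1 and 31.3 in induced libraries at 48 h. The groups were apart at 4 h and overlapped at 48 h. The effect fell by 1.66 at 4 h, was 0.15 at 48 h, and the difference was 1.80 (SE 0.19, adjusted p = 3.91e-05 by limma). LOC107832117 had 59.9, 59.9 and 62.9 CPM in controls and 20.8, 20.1 and 19.6 in induced libraries at 4 h, then 56.3 and 70.8 in controls and 57.1, 58.4 and 52.7 in induced libraries. Here too the early fall to a level of about 20 CPM was gone at 48 h (difference 1.40, SE 0.16, adjusted p = 7.26e-05 by limma). For LOC107820178 controls had 122.9, 108.2 and 121.8 CPM and induced libraries 47.1, 42.9 and 46.7 at 4 h, with 104.7 and 92.4 against 84.6, 78.4 and 105.1 at 48 h (difference 1.21, SE 0.17, adjusted p = 0.00145).

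LOC107763197 differed from these in its control. Its controls had 26.7, 23.9 and 24.3 CPM at 4 h and 12.7 and 9.56 at 48 h, while induced libraries had 8.18, 9.95 and 10.7, then 15.3, 14.1 and 16.1. The induced group was thus below the control at 7 days and above it at 9 days, without overlap at either time (difference 1.78, SE 0.20, adjusted p = 7.26e-05 by limma). LOC107772048 had the largest early effect among the 66. It fell from 77.0, 91.6 and 79.8 CPM to 12.8, 14.5 and 13.0 at 4 h, and at 48 h controls had 31.7 and 52.3 and induced libraries 22.4, 18.8 and 30.1. Its effect shrank from -2.58 to -0.79 and stayed negative (difference 1.78, SE 0.27, adjusted p = 0.0109), and paired by library number the difference did not pass (1.81, adjusted p = 0.358).

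The remaining unnamed genes among the 12 leading larger differences were LOC107803553 (1.13), LOC107777349 (1.46), LOC107778865 (1.23) and LOC107781689 (1.25). All 4 fell at 4 h, by 0.86, 1.21, 0.80 and 1.14 on the log2 scale, and none passed the test at 48 h, where the effects were 0.26, 0.25, 0.43 and 0.11. The calls of LOC107798225, LOC107832117, LOC107820178, LOC107763197 and LOC107803553 held in all 30 alternatives run. Without control replicate 2 at 48 h those of LOC107777349 (1.42), LOC107778865 (1.06) and LOC107781689 (1.22) ended, and without induced replicate 3 at 4 h that of LOC107772048 (1.76). Without both shallow libraries that of LOC107781689 ended as well (1.25).

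**Figure D2:**
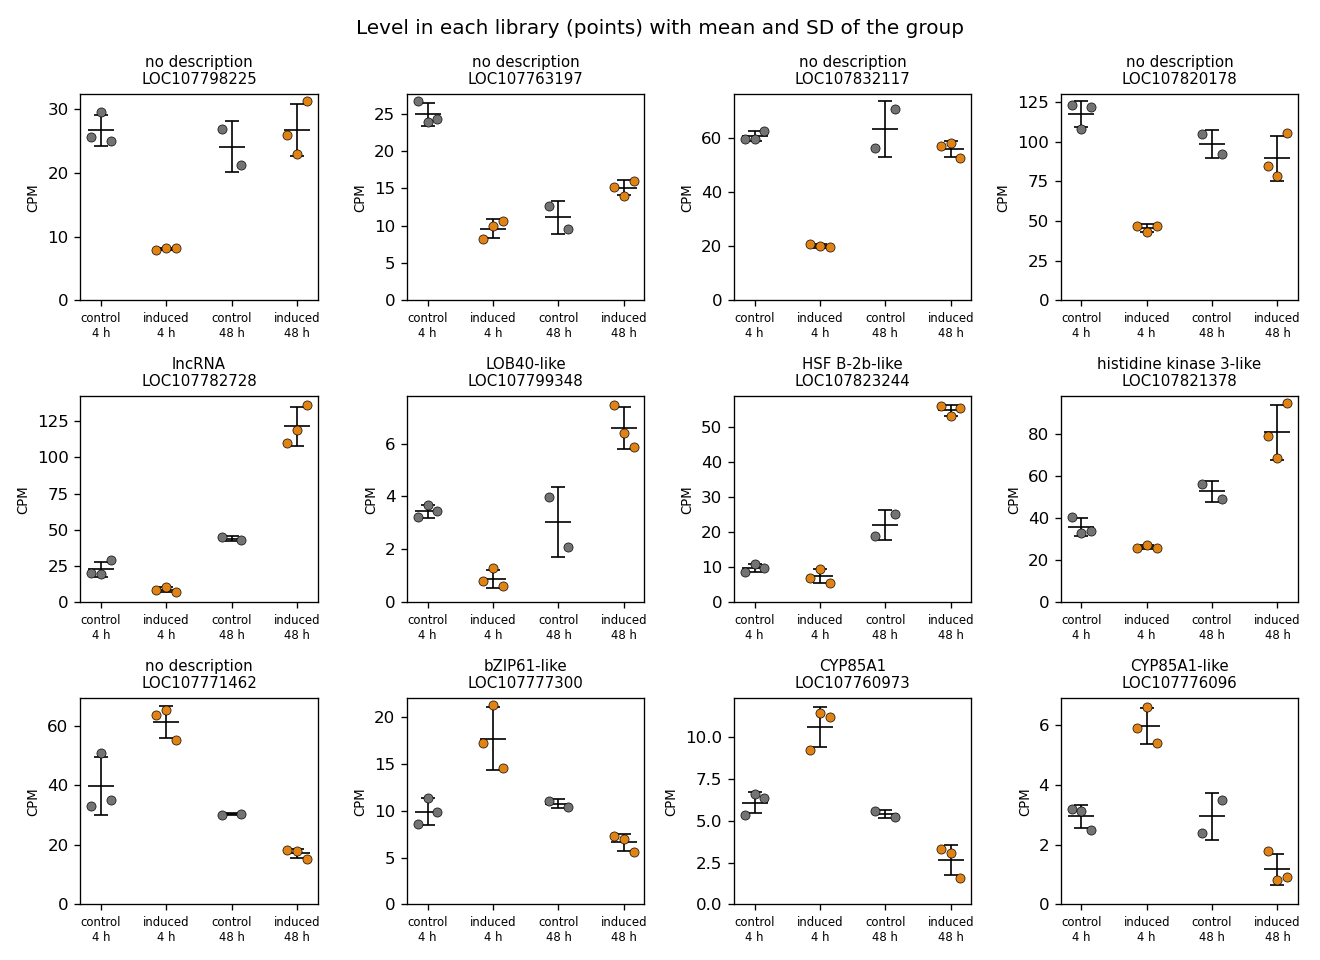
Level of 12 genes in CPM in each library (points, grey for control and orange for induced), with the group mean (bar) and SD (whiskers). The upper row shows genes low only after 4 h of induction except LOC107763197, whose control also declines, the middle row genes highest after 48 h of induction, and the lower row genes with a smaller effect at 48 h.

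Long non-coding RNAs had some of the largest differences. LOC107782728 was the 1 gene past the threshold at both times. Controls had 20.3, 19.7 and 29.0 CPM and induced libraries 8.64, 10.4 and 7.30 at 4 h, while at 48 h controls had 45.2 and 42.8 and induced libraries 109.7, 118.7 and 136. It fell by 1.33 at 4 h (adjusted p = 2.55e-05) and rose by 1.45 at 48 h (adjusted p = 0.000321), a difference of 2.78 (SE 0.21, adjusted p = 4.46e-07 by limma) that held in all 30 alternatives. The groups did not overlap at either time.

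LOC107769771 rose at 48 h only, from 7.14 and 6.42 CPM to 17.2, 17.3 and 30.7, and its 4 h levels were 6.41, 7.78 and 7.41 in controls against 5.73, 5.17 and 5.54 (difference 1.92, SE 0.27, adjusted p = 0.00122 by limma). LOC107822097 had 8.55, 7.73 and 11.5 CPM in controls and 6.16, 6.55 and 6.21 in induced libraries at 4 h, then 15.9 and 13.3 against 36.2, 26.2 and 49.1 (difference 1.78, SE 0.27, adjusted p = 0.00824). Its call ended without control replicate 2 at 48 h (1.66) and without both shallow libraries (1.95). In both genes induced replicate 3 was the highest library at 48 h. LOC107764008, singled out once its values were known, had the largest difference among the 66, 3.02 (SE 0.44, adjusted p = 0.00874 by limma), at low levels of 0.648 to 4.01 CPM at 4 h and 5.23 to 39.3 CPM at 48 h. Its call ended by edgeR's quasi-likelihood test and by voom with library weights. It also ended without control replicate 2 at 48 h (2.75) and without induced replicate 1 (2.93) or 2 (3.02) at 4 h. Without both shallow libraries the difference was 3.38.

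Of all annotated long non-coding RNAs, 5 of 2670 tested had a larger effect at 48 h and 0 a smaller one by limma, with 255 (9.55%, against 6.33% of all genes tested) at an unadjusted p under 0.05 in either direction. Their median difference was 0.113, beside 0.00149 over all genes tested, and they made up 7.58% of the 66 against 6.47% of the genes tested.

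Of 109 named transcription factors, 3 passed the threshold (2.75%, against 0.16% of all genes tested), 2 with a larger and 1 with a smaller effect at 48 h. The gene LOC107823244, heat stress transcription factor B-2b-like, belongs to the class B heat shock factors, which in thale cress act mostly as repressors. Its levels were 8.55, 10.8 and 9.76 CPM in controls and 7.10, 9.66 and 5.63 in induced libraries at 4 h, then 19.0 and 25.1 in controls against 56.0, 53.1 and 55.4. The groups overlapped at 4 h and were far apart at 48 h. Its effect of -0.38 at 4 h did not pass the test, it rose by 1.31 at 48 h (adjusted p = 0.00158), and the difference was 1.69 (SE 0.23, adjusted p = 0.00122 by limma).

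LOB domain-containing protein 40-like (LOC107799348) belongs to the plant-specific lateral organ boundaries family. Controls had 3.21, 3.67 and 3.43 CPM and induced libraries 0.792, 1.28 and 0.630 at 4 h, with 3.97 and 2.09 against 7.45, 6.39 and 5.89 at 48 h. Induced libraries lay below every control early and above every control later. It fell by 1.51 at 4 h (adjusted p = 0.00271), the effect of 1.05 at 48 h did not pass (adjusted p = 0.217), and the difference was 2.57 (SE 0.36, adjusted p = 0.00122 by limma). In the shallow libraries its 3.21 and 3.97 CPM rest on few reads, and without both of them the difference was 3.00.

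Basic leucine zipper 61-like (LOC107777300), of the bZIP family of DNA-binding proteins, moved the other way. It had 8.55, 11.4 and 9.88 CPM in controls and 17.3, 21.3 and 14.6 in induced libraries at 4 h, then 11.1 and 10.5 in controls and 7.36, 6.96 and 5.63 in induced libraries. It rose by 0.80 at 4 h (adjusted p = 0.0273), its effect of -0.66 at 48 h did not pass, and the difference was -1.46 (SE 0.23, adjusted p = 0.00504 by limma). The calls of the heat stress factor and LOB40-like held in every alternative that gave a value, and that of bZIP61-like held without each single library and ended without both shallow libraries (-1.32, adjusted p = 0.0832).

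The median difference of the 109 was 0.06, and 0.003 over the 59 in neither of the authors' deposited tables. Of the 109, 21 stand in the authors' table of genes higher at 4 h and 34 in that for 48 h, chosen on these data. Paired by library number, 7 of the 109 were larger and 3 smaller (9.17% of the list, against 0.831% of all genes tested in that fit). That share can be raised by the selection. Zinc finger protein 8-like (LOC107828820), named for a trichome regulator of thale cress, had 3.21, 5.31 and 5.21 CPM in controls and 7.35, 8.89 and 8.28 in induced libraries at 4 h, then 7.14 and 7.17 against 6.56, 4.73 and 2.68. Its difference of -1.44 missed the threshold (adjusted p = 0.186) and passed it in the paired fit (-1.71, adjusted p = 0.000786). The other 2 trichome regulators named here, bHLH factors of the JAF13 kind, had differences of 0.82 (LOC107764381) and -0.40 (LOC107826976) and did not pass.

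Brassinosteroid genes had smaller effects at 48 h in 3 of the 6 measured members (0.0533% of all genes tested). Cytochrome P450 85A1 is the brassinosteroid-6-oxidase that makes castasterone, a late step in the synthesis of these growth hormones. Both copies with that description were among the 22. Both stand in the authors' deposited table of genes higher at 4 h, and a copy without a description would not be counted here. LOC107760973 had 5.35, 6.57 and 6.33 CPM in controls and 9.22, 11.4 and 11.2 in induced libraries at 4 h, against 5.55 and 5.23 in controls and 3.28, 3.07 and 1.60 in induced libraries at 48 h. LOC107776096 had 3.21, 3.14 and 2.51 CPM and 5.91, 6.61 and 5.40 at 4 h, against 2.38 and 3.51, then 1.77, 0.830 and 0.909 at 48 h. In both copies every induced library was above the controls early and below them later, while the controls kept about the same level at the 2 ages. The differences were -1.70 (SE 0.30, adjusted p = 0.0111 by limma) and -1.98 (SE 0.36, adjusted p = 0.0152), although neither effect passed at either time on its own. The copies may share reads, so the split between them is uncertain. In the shallow libraries both copies rest on few reads, where 1 read is worth 1.07 CPM at 4 h and 0.793 CPM at 48 h. The separation of LOC107776096 at 48 h (2.38 CPM in the shallow control against 1.77 in induced replicate 1) is thus imprecise.

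The third was probable membrane-associated kinase regulator 6 (LOC107764853), of a family that in thale cress includes an inhibitor of the brassinosteroid receptor. Its levels were 6.41, 7.05 and 7.33 CPM against 11.6, 11.2 and 10.7 at 4 h and 12.7 and 9.41 against 7.27, 6.96 and 5.63 at 48 h (difference -1.34, SE 0.23, adjusted p = 0.00925 by limma). LOC107816987, of the cytochrome P450 family that inactivates brassinosteroids, had a difference of -0.60 and did not pass (adjusted p = 0.542). The list median was -0.97, and the authors' deposited table of genes higher at 4 h holds 4 of its 6 members, whose early effect was high by that selection, so its direction has no independent support. The calls of the copies ended without control replicate 2 at 48 h (-1.74 for each), that of LOC107760973 also without control replicate 1 at 4 h (-1.62) and that of LOC107776096 without control replicate 3 (-1.91) or induced replicate 1 (-1.98) at 4 h. That of the kinase regulator ended without control replicate 1 at 48 h (-1.14). By DESeq2 the calls of LOC107760973 and the kinase regulator ended too. Without both shallow libraries LOC107776096 passed (-2.27), and LOC107760973 (-1.58) and the kinase regulator (-1.09) did not.

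Single genes of other hormone pathways had larger effects at 48 h. Histidine kinase 3-like (LOC107821378) is named for a cytokinin receptor of thale cress. It had 40.6, 33.1 and 34.0 CPM in controls and 26.0, 27.5 and 25.9 in induced libraries at 4 h, then 56.3 and 49.3 against 79.0, 68.7 and 94.7. The induced group was below the control early and above it later without overlap (difference 1.03, SE 0.18, adjusted p = 0.0109 by limma), although neither effect passed alone. It was the 1 of 8 cytokinin genes past the threshold (0.16% of all genes tested), and the list median was 0.47. The authors' deposited table of genes higher at 48 h holds 5 of the 8 and that for 4 h holds 1. The 2 in neither had a median of 0.16.

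Probable E3 ubiquitin-protein ligase XERICO (LOC107822042) is named for a thale cress protein that raises abscisic acid levels when abundant. Its levels were 5.35, 5.41 and 8.80 CPM against 5.29, 3.56 and 4.19 at 4 h, and 4.76 and 3.73 against 9.49, 8.24 and 9.14 at 48 h, so the groups were apart at both times, by a narrow margin at 4 h (difference 1.51, SE 0.29, adjusted p = 0.0255 by limma). It was the 1 of 14 abscisic acid genes past the threshold (0.16% of all genes tested). The list median was 1.04, with 8 of the 14 in the authors' deposited table of genes higher at 48 h and 2 in that for 4 h. Paired by number 3 were larger and 2 smaller (0.831% of all genes tested), among the latter the abscisic acid receptor PYL2-like (LOC107815995, -1.12, adjusted p = 0.0215). All 8 desiccation protection genes had a difference above 0 and a median of 0.94, but all 8 come from the authors' 48 h table and none passed by limma, with 2 at an unadjusted p under 0.05. The leading one, low-temperature-induced 65 kDa protein-like (LOC107819933), had 1.37 (adjusted p = 0.139, and 0.000786 in the paired fit).

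F-box protein SNE-like (LOC107815865) is named for a thale cress F-box protein of gibberellin signalling. It had 13.9, 10.2 and 10.9 CPM in controls and 16.1, 16.6 and 20.8 in induced libraries at 4 h, then 7.93 and 7.02 against 5.85, 4.60 and 4.07 (difference -1.18, SE 0.24, adjusted p = 0.0397 by limma). The lists for gibberellin (9 genes), auxin (16), ethylene (27) and jasmonate (14) held 0 genes past the threshold by limma, with 4, 6, 8 and 2 at an unadjusted p under 0.05 (6.33% of all genes tested). Of the auxin genes 2 passed as smaller in the paired fit (0.351% of all genes tested). The median of the jasmonate list moved from -0.11 to 0.05 without both shallow libraries. Paired by number, EIN3-binding F-box protein 2-like (LOC107795861) and 1-like (LOC107806314), which remove the main ethylene response factor, passed as larger (0.48% of all genes tested).

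The calls of this group rested on single libraries. That of histidine kinase 3-like ended without control replicate 1 at 4 h (0.94) and control replicate 2 at 48 h (0.93). That of XERICO ended at 4 h without control replicate 3 (1.27), induced replicate 2 (1.38) or 3 (1.50), and at 48 h without control replicate 2 (1.36) or induced replicate 1 (1.47) or 3 (1.50). That of SNE-like held only without control replicate 1 at 4 h and induced replicate 1 at 48 h. Its difference lay between -1.33 and -1.07 over all left-out libraries. By edgeR's quasi-likelihood test, DESeq2 and voom with library weights the SNE-like call ended as well. None of these 3 passed without both shallow libraries (1.03, 1.78 and -1.23), while paired by number all 3 passed.

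Of 16 light and clock genes 2 passed (0.16% of all genes tested), 1 in each direction. The authors' 4 h table holds 8 of the 16 and that for 48 h holds 6. Root phototropism protein 3-like (LOC107829820) is named for a thale cress protein that acts with the blue-light receptors in bending towards light, and protein PHYTOCHROME KINASE SUBSTRATE 3-like (LOC107815731) for a family that binds phytochromes and phototropins. The first had 11.8, 11.7 and 11.7 CPM against 8.97, 13.2 and 8.15 at 4 h and rose at 48 h, from 6.34 and 7.02 to 16.9, 11.9 and 13.2 (difference 1.24, SE 0.24, adjusted p = 0.0317 by limma). The second had 3.21, 5.22 and 3.32 CPM against 6.63, 8.28 and 5.85 at 4 h and 15.1 and 12.9 against 9.85, 9.71 and 7.62 at 48 h (difference -1.37, SE 0.28, adjusted p = 0.0344). One was thus higher late and the other higher early, and the list median was -0.11. Leucine-rich repeat receptor-like kinase BAM1 (LOC107770387), related to the CLAVATA1 receptor of stem cell control, had 13.9, 17.7 and 15.1 CPM against 27.3, 24.4 and 22.5 at 4 h and 7.93 and 7.62 against 5.68, 5.88 and 5.63 at 48 h. It rose by 0.65 at 4 h (adjusted p = 0.0423) and had a difference of -1.06 (SE 0.20, adjusted p = 0.0199). BAM1 was the 1 of 41 named protein kinases past the threshold (0.16% of all genes tested).

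All 3 calls depended on many libraries, and all ended by edgeR's quasi-likelihood test, by DESeq2 and by voom with library weights. The first ended without any control library, without induced replicate 1 or 3 at 4 h and without induced replicate 1 at 48 h (1.09 to 1.30). The second ended without control replicate 1 or 3 or induced replicate 1 or 2 at 4 h, and without either control or induced replicate 3 at 48 h (-1.48 to -1.26). That of BAM1 ended without control replicate 1 or 3 or induced replicate 1 or 2 at 4 h and without either control at 48 h (-1.09 to -0.99). Without both shallow libraries the differences were 1.17, -1.15 and -0.96 and did not pass.

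Enzymes and chaperones completed the described genes. Chaperone protein dnaJ 11, chloroplastic-like (LOC107759587), a J-domain partner of Hsp70 chaperones, had 34.2, 26.2 and 34.8 CPM against 19.1, 12.5 and 17.9 at 4 h and 25.4 and 19.4 against 32.8, 29.1 and 36.5 at 48 h. It fell by 0.93 at 4 h (adjusted p = 0.00954) and had a difference of 1.48 (SE 0.23, adjusted p = 0.0083 by limma). With the heat stress factor it made 2 of 17 heat shock genes past the threshold (0.16% of all genes tested), both larger, with a list median of 0.17. Of the 17, 8 stand in the authors' 48 h table. Its call ended without control replicate 2 at 48 h (1.29).

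Probable tyrosine-protein phosphatase At1g05000 (LOC107759579), which removes phosphate from proteins, had 7.48, 6.23 and 7.56 CPM against 12.5, 10.6 and 12.9 at 4 h and 10.3 and 10.9 against 6.03, 6.26 and 7.75 at 48 h (difference -1.36, SE 0.23, adjusted p = 0.00824 by limma). Aspartic proteinase PCS1-like (LOC107786388), named for a thale cress protease of cell survival in reproductive tissue, had 5.35, 5.12 and 4.78 CPM against 8.28, 9.34 and 7.48 at 4 h and 4.76 and 6.12 against 3.02, 2.81 and 3.12 at 48 h (difference -1.43, SE 0.26, adjusted p = 0.0161). In both the induced libraries changed sides without overlap. The call of the phosphatase ended without control replicate 2 at 48 h (-1.32) and without both shallow libraries (-1.43). That of the proteinase ended without induced replicate 1 (-1.43) or 2 (-1.37) at 4 h and without control replicate 2 at 48 h (-1.26).

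V-type proton ATPase catalytic subunit A-like (LOC107823795), part of the pump that acidifies the vacuole, had 41.7, 47.7 and 50.9 CPM against 47.4, 37.5 and 37.4 at 4 h and 33.3 and 32.8 against 49.5, 50.4 and 63.7 at 48 h (difference 0.90, SE 0.18, adjusted p = 0.0395 by limma). From the mitochondrial genome, cox1 (NitaMp049), which encodes part of cytochrome c oxidase, had 6.41, 6.67 and 6.29 CPM against 3.06, 2.54 and 3.60 at 4 h and 4.76 and 8.51 against 12.6, 8.94 and 7.23 at 48 h (difference 1.49, SE 0.31, adjusted p = 0.0492), and its groups overlapped at 48 h. By edgeR's quasi-likelihood test and voom with library weights both calls ended, and that of cox1 ended by DESeq2 too. The ATPase call held only without induced replicate 1 at 4 h and induced replicates 1 and 2 at 48 h (0.79 to 1.02 over all left-out libraries). That of cox1 held only without control replicate 2 and induced replicate 3 at 48 h (1.10 to 1.88). Neither passed without both shallow libraries (0.99 and 1.11).

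Among genes without a description, LOC107771462, annotated as a miscellaneous RNA, had the smallest p of the 22. Controls had 33.1, 50.7 and 35.1 CPM and induced libraries 63.7, 65.1 and 55.2 at 4 h, with 30.1 and 30.5 against 18.1, 18.0 and 15.3 at 48 h. The induced group changed from above to below the control without overlap (difference -1.45, SE 0.20, adjusted p = 0.00122 by limma), and the call held in all 30 alternatives. The other unnamed genes among the 12 leading smaller differences were LOC107810532 (-1.15), LOC107761719 (-1.12), LOC107817590 (-1.14) and LOC107802273 (-1.31). Their calls ended without control replicate 2 at 48 h for LOC107810532 (-1.10) and LOC107761719 (-1.07), and without control replicate 1 at 4 h for LOC107761719 (-1.005) and LOC107817590 (-1.08). That of LOC107817590 also ended without control replicate 3 at 4 h (-1.11) and control replicate 1 at 48 h (-1.01). That of LOC107802273 held without 5 of the 11 libraries (-1.52 to -1.19). By edgeR's quasi-likelihood test the calls of LOC107817590 and LOC107802273 ended, and by DESeq2 that of LOC107817590.

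**Figure D3:**
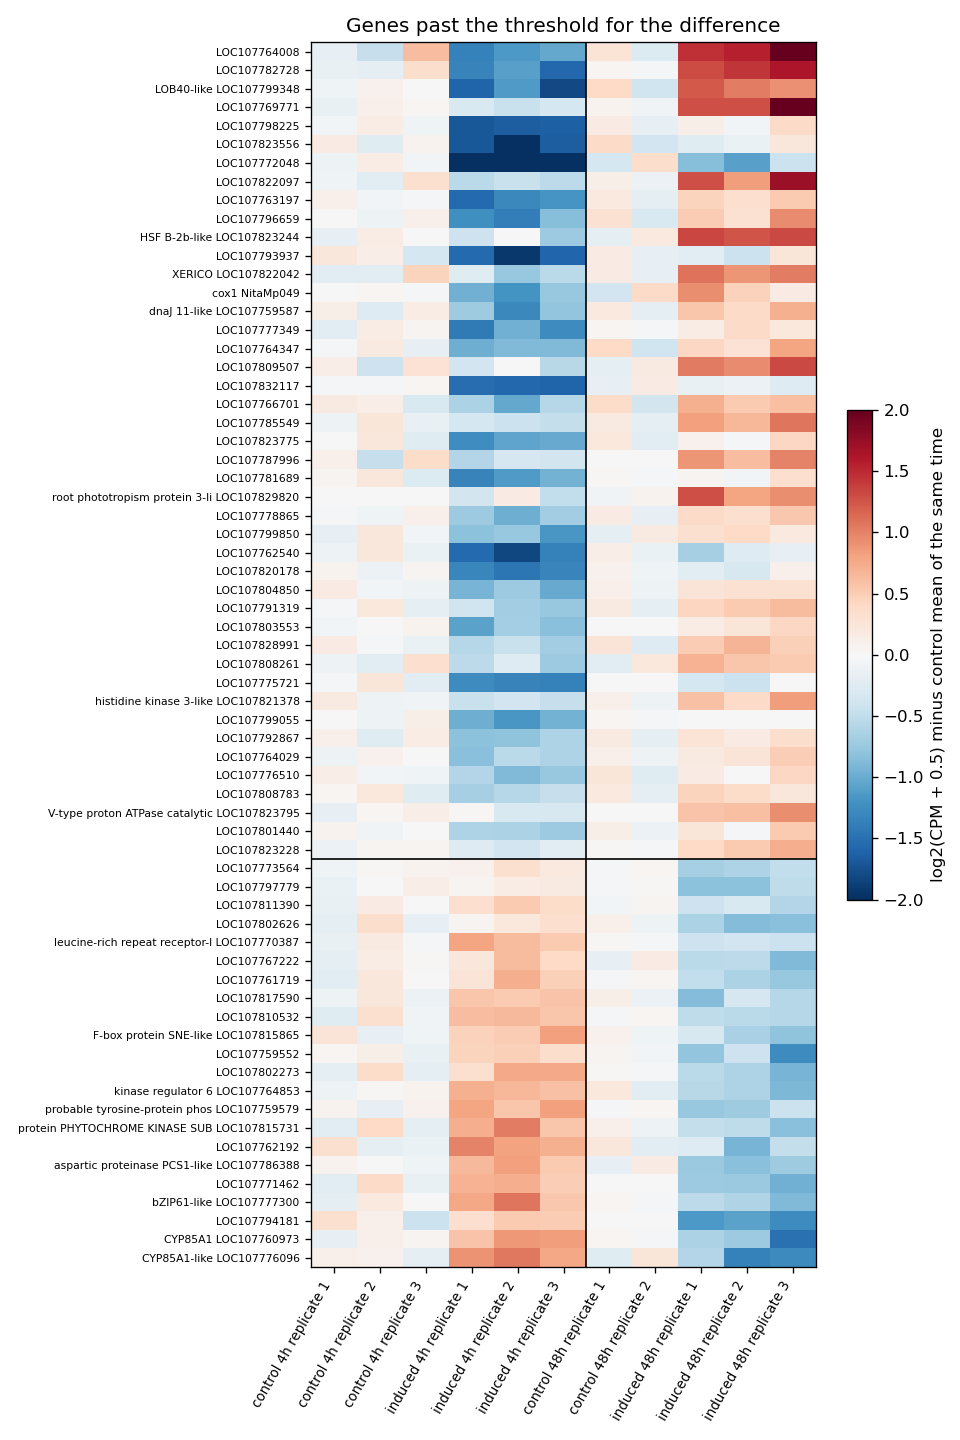
Rows are the 66 genes past the threshold in order of their difference and columns are the 11 libraries, coloured by log2(CPM + 0.5) minus the control mean of the same time (red above, blue below). In the 44 genes above the horizontal line induced libraries are mostly blue at 4 h and pale or red at 48 h, and in the 22 below it they are red, then blue.

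Where several genes share a description, the copies had differences of the same sign in each of 7 groups. The other heat stress factors B-2b-like had 1.64 (LOC107769826) and 1.52 (LOC107775044) beside 1.69, the other dnaJ 11-like 0.97 (LOC107789192) beside 1.48 and the other root phototropism 3-like 0.81 (LOC107815393) beside 1.24. Among those with a smaller effect at 48 h, the other SNE-like had -1.44 (LOC107769829) beside -1.18, the other BAM1-like -0.97 (LOC107760335) beside -1.06 and the other PCS1-like -0.62 (LOC107810268) beside -1.43. None of these 7 further copies passed the threshold by limma. In the paired fit the SNE-like copy (-1.58, adjusted p = 0.017) and LOC107769826 (1.80, adjusted p = 0.0436) passed. Descriptions come from the authors' deposited tables of genes higher at one of the times, so copies of one table tend to share a sign by selection, and copies may share reads.

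**Figure D4:**
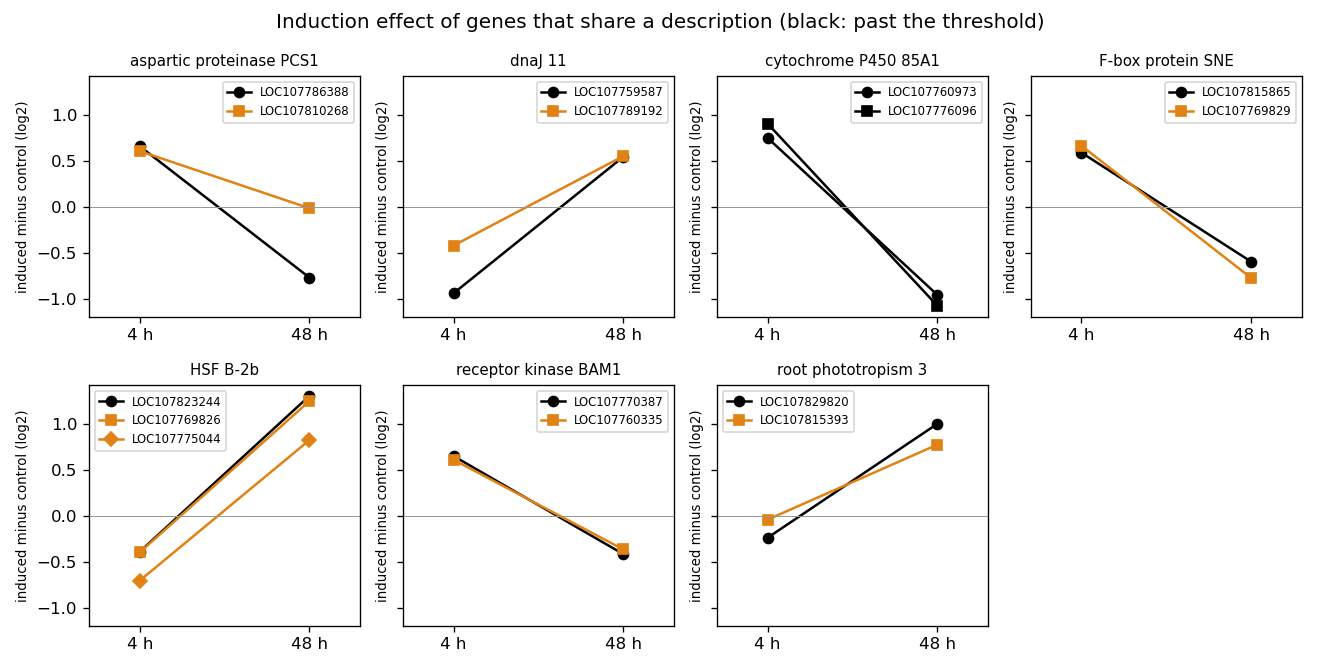
Induction effect (log2) at 4 h and 48 h for the 7 groups of genes that share a description, with genes past the threshold for the difference in black and the others in orange. Lines of one panel slope the same way, rising for dnaJ 11, HSF B-2b and root phototropism 3 and falling for the other 4.

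The lists, with the organelle-encoded genes and so cox1 among them, held 14 genes past the threshold, 7 in each direction. Over all genes tested 44 (0.107%) were larger and 22 (0.0533%) smaller. Nicotine genes (19 measured) had a median effect of 1.36 at 4 h and 0.01 at 48 h and a median difference of -1.55. In the main fit by limma none passed (5 of 19 at an unadjusted p under 0.05, against 6.33% of all genes tested). That statement does not extend to the other settings. The median difference lay between -3.37 and -0.66 over the alternatives. Without both shallow libraries it was -2.86, where the 48 h control is replicate 2 alone, the higher of the 2 in summed level. The summed level of the 19 was 126.1, 89.6 and 98.9 CPM in controls and 282.6, 165.4 and 236.8 in induced libraries at 4 h. At 48 h it was 98.3 and 195.2 against 107.6, 165.4 and 150.9, so the controls at 48 h spanned the induced libraries. Ornithine decarboxylase-like (LOC107815922), which supplies putrescine, had -1.97 (adjusted p = 0.479 by limma) and passed paired by number. Without both shallow libraries its difference was -2.89. Of the 19, 12 stand in the authors' table of genes higher at 4 h.

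Genes of photosynthesis (23), carotenoids (16), flavonoids and phenylpropanoids (27), the cell cycle (42), ribosomal proteins (20), the cell wall (29), surface and membrane lipids (16), terpenoids and sterols (20), defence (39), autophagy (17) and the cytoskeleton (14) held 0 genes past the threshold by limma. At an unadjusted p under 0.05 they held 0, 0, 1, 6, 2, 9, 6, 4, 4, 2 and 0 (6.33% of all genes tested). Their median differences lay between -0.19 and 0.10, and that of the cell wall list moved from 0.08 to 0.31 without both shallow libraries. Paired by number 2 cell wall genes passed as smaller (0.351% of all genes tested). They were the expansin genes Nt-EXPA4 (LOC107808676, -0.90, adjusted p = 0.000516) and Nt-EXPA1 (LOC107798333, -0.65, adjusted p = 0.0248), whose proteins loosen cell walls. Cyclin-U4-1-like (LOC107811449) came nearest, with -1.32 (adjusted p = 0.061, and 0.045 paired). Lists for endoplasmic reticulum chaperones (9) and for sulfate, nitrate and phosphate transport (18) also held 0, with medians of 0.14 and 0.05 and 0 and 4 genes at an unadjusted p under 0.05. Of the transport genes 3 passed as larger in the paired fit (0.48% of all genes tested), and the authors' 48 h table holds 7 of the 18. The median of the 18 was 0.30 without both shallow libraries. Of 36 ubiquitin and proteasome genes 2 passed (0.16% of all genes tested), XERICO and SNE-like, in opposite directions, with a median of 0.55. In the paired fit 4 were larger and 2 smaller (0.831% of all genes tested). Of that list 11 genes stand in the authors' 4 h table and 23 in that for 48 h.

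Among genes encoded in the organelles cox1 alone passed the threshold, and the other members are given as values. The difference was above 0 in 38 of 40 mitochondrion-encoded genes (median 0.51) and 58 of 67 plastid-encoded genes (median 0.32), against 50.2% of all genes tested. Single members ran from -1.10 to 1.60 (mitochondrion) and from -0.93 to 1.63 (plastid), and paired by number 3 plastid-encoded genes passed as larger (0.48% of all genes tested). Plastid-encoded genes summed to 72620, 69570 and 68900 CPM in controls and 59210, 44110 and 55630 in induced libraries at 4 h, and to 57030 and 69410 against 94150, 66100 and 70460 at 48 h. Induced libraries were below the controls at 4 h and overlapped them at 48 h. Such reads depend on how polyadenylated RNA was selected, and the part of that in the values was not tested.

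Markers of other cell types held 0 genes past the threshold in every list by limma. At an unadjusted p under 0.05 they held 4 of 9 for root, 2 of 6 for vascular, 2 of 3 for glandular trichomes, 0 for meristem and mesophyll, and the guard cell gene (6.33% of all genes tested). Their medians were 0.61 for root (9 genes), 0.13 for vascular (6), -0.03 for meristem (7), -0.07 for mesophyll (6) and 0.58 for glandular trichomes (3), and the 1 guard cell marker had 1.01. The authors' 48 h table holds 7, 2 and 1 of the root, vascular and glandular trichome genes, and the guard cell gene. The root sum was 30.9 and 22.6 CPM in controls at 48 h and 46.5, 41.2 and 48.0 in induced libraries, with 31.9 to 40.2 CPM in all libraries at 4 h. The root list was drawn by patterns in gene names that include peroxidase, and the samples were aerial parts. Whether its sum reflects root cells was not tested. The glandular trichome sum, mostly the lipid transfer protein gene NtLTP3 (LOC107814800), was 180.8 and 197.9 against 240.7, 232 and 236.7 at 48 h. No defining marker was at 0 in a group, and the part of such cells in the differences was not tested.

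**Figure D5:**
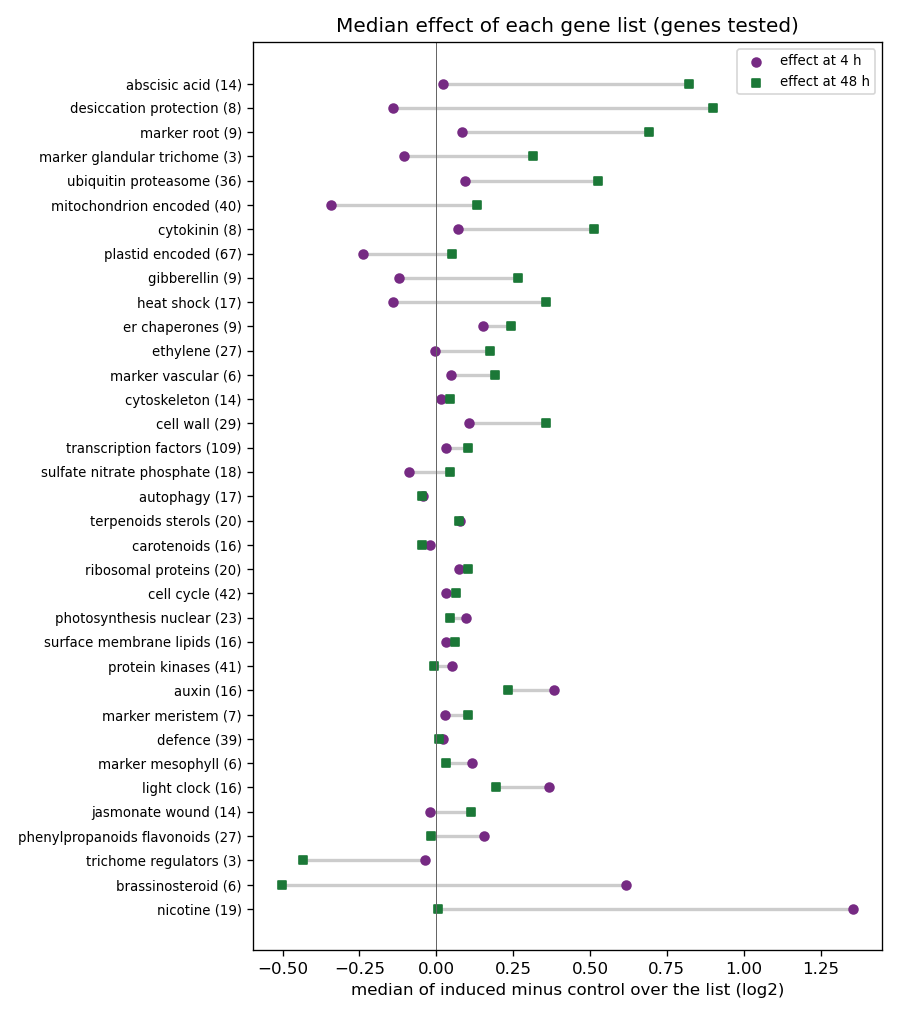
Median induction effect (log2) of each list of named genes at 4 h (circles) and 48 h (squares), with the number of genes tested in brackets, ordered by the median difference. Brassinosteroid and nicotine genes stand at the bottom, with early medians of 0.62 and 1.36, and abscisic acid and desiccation genes at the top, with late medians of 0.82 and 0.90.

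Of the 66 genes 53 were protein-coding, 5 long non-coding RNAs and 8 of other kinds. A name was held by 17 of the 66, against 1384 of the 41261 genes tested. The mean level of the 66 over groups ran from 3.26 to 103.6 CPM with a median of 22.0, beside 7.04 over all genes tested. Of the 44, 17 stand in the authors' deposited table of genes higher at 48 h, which holds 584 of the 41261. Of the 22, 12 stand in that for 4 h, which holds 150. Both tables were chosen on these data, and many names come from them, so these shares are raised by selection. In RefSeq gene order on the assembly ASM71507v2, 61 of the 66 could be placed, and none of their 122 nearest neighbours was among the 66. Of the 70 neighbours tested, 41 had a difference of the same sign as the gene beside them. The values nearest the threshold were those of cox1 inside (adjusted p = 0.0492) and LOC107798759 outside (difference 1.08, adjusted p = 0.0519).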

How the data were processed

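Polyadenylated RNA from 4 groups of seedlings was measured. The deposited values per gene and library are a signal: gene read counts divided by a factor, which the authors' files do not name. Whole reads were recovered from them within a tolerance of 0.01. The submitters' processing notes name edgeR. For aligner, read counting and genome build, the sources used here name none. The authors' deposited tables also hold a linear ratio (fold change) and an unadjusted p-value per gene, and they were used only for gene descriptions and for which genes the authors listed as higher. A further 12 columns of per-sample values were not used.

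Genes with a single value above 5000 and 20 times the gene's median were left out (4 at 4 h, 14 at 48 h). Recovered reads were scaled with TMM in edgeR 4.0.16 to CPM, genes with at least 1 CPM in 3 or more of 11 libraries were kept, and log2(CPM + 0.5) was fitted with limma 3.58.1 in R 4.3.3 (trend, robust, 7 residual degrees of freedom before moderation). The difference is the contrast of the 2 induction effects, called at a Benjamini-Hochberg adjusted p under 0.05 over all genes tested. DESeq2 1.42.0 and edgeR's quasi-likelihood test on the recovered reads were alternatives. The fit was tested on simulated data.

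Control replicates 2 and 3 at 48 h were equal in all 42659 genes and entered once. Libraries with the same library number in the sample descriptions deviated from their group means together (r = 0.149, 0.191 and 0.141 at 4 h, 0.376 and 0.313 at 48 h over 25184 genes), so these numbers were taken to pair the libraries. At 48 h the 2 controls deviate in exactly opposite directions, so those 2 values are not independent. The number of the repeated library is uncertain, and 3 was used beside results.

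Names came from the authors' descriptions (431 genes) and from RefSeq on ASM71507v2 (39993 genes matched), 1455 in all, so named genes lean towards those the authors listed as higher. The genes named were the 12 with the smallest p in each direction past the threshold, the same among genes with a name, the 4 leading members of each list (given in part), and the 6 leading genes of each effect. The genes and lists were chosen with earlier results of these data known. A search of promoters for motifs was not run because no sequences were used here.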

Additional observations from a re-analysis of the deposited data

Results flagged for a closer look

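Each result here is a difference between the effects at 2 times that passed the test of the difference itself by limma, 44 genes with a larger effect at 48 h and 22 with a smaller one. Among genes without a description, the larger differences were 2.78 for LOC107782728, 1.92 for LOC107769771, 1.80 for LOC107798225, 1.78 for LOC107763197, 1.46 for LOC107777349, 1.40 for LOC107832117, 1.25 for LOC107781689, 1.23 for LOC107778865, 1.21 for LOC107820178 and 1.13 for LOC107803553. The smaller ones were -1.45 for LOC107771462, -1.31 for LOC107802273, -1.15 for LOC107810532, -1.14 for LOC107817590 and -1.12 for LOC107761719.

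Among described genes the larger differences were 2.57 for LOB40-like (LOC107799348), 1.69 for heat stress factor B-2b-like (LOC107823244), 1.51 for XERICO (LOC107822042), 1.49 for cox1 (NitaMp049), 1.48 for dnaJ 11 (LOC107759587), 1.24 for root phototropism 3-like (LOC107829820), 1.03 for histidine kinase 3-like (LOC107821378) and 0.90 for the V-type ATPase subunit (LOC107823795). The smaller ones were -1.98 and -1.70 for the cytochrome P450 85A1 copies (LOC107776096 and LOC107760973), -1.46 for bZIP61-like (LOC107777300), -1.43 for PCS1-like (LOC107786388), -1.37 for PHYTOCHROME KINASE SUBSTRATE 3-like (LOC107815731), -1.36 for the tyrosine phosphatase (LOC107759579), -1.34 for kinase regulator 6 (LOC107764853), -1.18 for SNE-like (LOC107815865) and -1.06 for BAM1 (LOC107770387).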

How the results depend on the processing

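All 66 genes kept the sign of their difference in each of 30 alternatives that gave a value, 9 passed in each of these, and 11 passed whichever library was left out. The count of 66 ranged from 19 (without control replicate 2 at 48 h, which ended 49 of the calls) to 94 over left-out libraries, and fell to 41 (33 larger, 8 smaller) without both shallow controls, with 28 of the 66 among them. An alternative chosen after seeing the data, which also weighted libraries with voom, gave 24. edgeR's quasi-likelihood test gave 52 and DESeq2 65. Without both shallow controls, or without either control at 48 h, that control group is a single library. The causes were not tested.

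With the replicate block by library number the difference passed in 343 genes (433 with the repeated library as number 2, and 144 by title number). In the same order the effect at 4 h, 52 without a block, passed in 275, 232 and 159, and that at 48 h, 10 without, in 244, 335 and 110. Genes past the threshold with opposite signs, 58 without, numbered 316, 397 and 130, and list members, 14 without, 41, 60 and 27. The block ended 3 of the 66 calls: LOC107772048 (adjusted p = 0.358), LOC107809507 (0.165) and LOC107787996 (0.0577).

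The 48 h count of 10 became 4 with a pseudocount of 0.1, 16 with 2, 4 with a mean of at least 5 CPM, 2 by edgeR, 6 by voom, 3 without robust moderation, 1 under the added alternative and 201 with the repeated library as 2 samples, and ran from 2 to 49 over left-out libraries. That at 4 h ran from 35 to 73. Opposite signs numbered 90 with the repeated library as 2 samples, 38 without both shallow controls, 21 under the added alternative and 15 to 83 over left-out libraries. List members numbered 9 without robust moderation, 7 without both shallow controls, 3 under the added alternative and 5 to 18 over left-out libraries.

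Genes near 0 changed sign. Rca (LOC107798594, -0.08) had 0.025 by title number and -0.21 to 0.038 over left-out libraries, NTH15 (LOC107759204, -0.16) had 0.0047 without both shallow controls and -0.38 to 0.056, NTH1 (LOC107817797, -0.08) -0.26 to 0.11, PSY2 (LOC107818367, -0.42) -0.91 to 0.071 and NTH22 (LOC107781949, 0.20) -0.19 to 0.58. In the shallow libraries 1 read is worth about as much as the filter's minimum of 1 CPM, so low genes are imprecise there.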

Other observations

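Among the leading genes of each single effect, several had a difference that did not pass. BOI-related E3 ubiquitin-protein ligase 3 (LOC107825090) rose by 0.66 at 4 h and had an effect of 0.40 at 48 h (difference -0.26, adjusted p = 0.917 by limma). EIN3-binding F-box protein 1-like (LOC107806314) rose by 1.13 at 48 h (adjusted p = 0.0469), with an effect of 0.35 at 4 h and a difference of 0.78 (adjusted p = 0.426). LOC107788485, without a description, rose by 1.84 at 48 h with an effect of 0.11 at 4 h (difference 1.73, adjusted p = 0.0789), and LOC107820763 fell by 1.71 at 48 h with an effect of -0.37 at 4 h (difference -1.34, adjusted p = 0.366). A change of these effects between the times was not shown.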
